A study of Mus musculus with 7 samples.

Results

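The olfactory receptor genes of mouse chromosome 9 were placed against the lamin-associated domains (LADs) of mouse embryonic fibroblasts. LADs are long stretches of a chromosome that touch the nuclear lamina, a mesh of proteins lining the inside of the nuclear envelope. The members were the genes that the RefSeq table of GRCm38.p6, the build also called mm10, lists as protein-coding on chromosome 9 with a symbol of Olfr or Or and a digit. There were 130 of them, among 21887 protein-coding genes and 1110 olfactory receptor genes on the placed chromosomes. The rule used names and positions only and no measured value. The label fitted the annotation with 1 exception, Olfr911-ps1, whose symbol marks a pseudogene although the table calls it protein-coding.

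The domains were mapped by CUT&RUN for Lamin B1, a protein of the lamina, in which an antibody directs a nuclease to cut out the chromatin it binds. Of the 7 libraries of the series, 2 were for Lamin B1, both from the embryonic fibroblast line that the labels call iMEF, with no treatment named and whole cells bound to the beads. The list used here is the merged result, and its name gives the genotype as WT. The series derived its lines independently within a mouse colony, and no promoter, Cre or transgene is named for these cells. The list holds positions of 1437 domains and no expression, so the fibroblast label could not be set against marker genes. It describes a bulk population, in which a domain present in a part of the cells cannot be told apart from a weaker contact in all of them. There was 1 merged list, the read depth behind it is unknown, and no position below has a replicate error or a test. The 5 libraries for IgG, H3K9me2 and H3K14ac were not analysed here.

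Olfactory receptors are G protein-coupled receptors of the sensory neurons of the nose, and form the largest gene family of the mouse. They lie in tandem clusters, and each neuron is known to transcribe a single allele of a single receptor gene while the others stay in repressive chromatin. Odorant binding activates the G protein subunit encoded by Gnal, then adenylyl cyclase 3 and a cyclic nucleotide-gated channel. Older MOR names sort mouse receptors into families by similarity of their proteins.

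All 130 receptor genes lay in a LAD, whole gene included, and they filled 2 clusters that each lay inside 1 domain. A gene was counted by its midpoint, and each chromosome was read from its first to its last domain. On this count 24.6% of all protein-coding genes were in LADs (5207 of 21130), 21.1% without the receptors. The share was 19.7% for the other protein-coding genes of chromosome 9 (211 of 1071). A cluster was a run of receptor genes with gaps of at most 500 kb. The widest gaps inside the clusters were 127.3 and 74.2 kb, and 17.4 Mb separated the clusters. For these reasons 2 were also found with gaps of 200 kb and of 1 Mb. The clusters are called proximal and distal here, after their distance from the centromere, which mouse chromosomes carry at the low-coordinate end. Genes of a cluster share their domain and are not independent observations of it.

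The proximal cluster held 35 receptor genes from Olfr24 to Olfr18 (chromosome 9, 18754692 to 20336094, mm10), a stretch of 1.58 Mb. Its domain ran from 18339027 to 20351520 and measured 2.01 Mb. Receptor genes were not centred in it. The first, Olfr24 (18754692 to 18755633), began 415.7 kb inside the domain, and the last, Olfr18 (20313892 to 20336094), ended 15.4 kb before the border. Of all 130 receptors Olfr18 came closest to a border. Counted in steps of 500 kb from the start of the domain, 2, 9, 11 and 13 receptors followed each other. Receptors thus grew denser towards the distal border. The domain ended just past the last full step, and this short remainder held 0.

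Measured from the gene midpoint, receptors of the proximal cluster lay between 26.5 and 999.9 kb from the nearest border, with a median of 542.7 kb and quartiles of 310.3 and 791.5 kb. This median was 784.6 kb with LADs joined across 250 kb and 834.6 kb with each LAD lengthened by 50 kb, since both close the short gap before the domain. Olfr845 (19338459 to 19339400) lay deepest, 999.9 kb from the start of the domain and 1013 kb from its end. The 3 receptors within 100 kb of a border were Olfr39, Olfr873 and Olfr18, all at the distal end. The widest gap between neighbouring receptors, 127.3 kb between Olfr855 and Olfr857, held Zfp317, a zinc finger gene. The median gap was 33.1 kb.

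The distal cluster held 95 receptor genes from Olfr160 to Olfr986 (chromosome 9, 37711348 to 40188094, mm10), a stretch of 2.48 Mb. Its domain ran from 37668966 to 40301457 and measured 2.63 Mb. The receptors spanned 94.1% of this domain, against 78.6% in the proximal one. Olfr160 (37711348 to 37712280) began 42.4 kb inside. It is the receptor also called M72, known for its response to acetophenone and for its use in studies of how olfactory axons find their targets. At the other end Olfr986 (40187079 to 40188094) ended 113.4 kb before the border. There were 38.4 receptors per Mb between the first and last gene, against 22.1 per Mb in the proximal cluster.

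Receptors of the distal cluster lay between 42.8 and 1314 kb from the nearest border, with a median of 687.4 kb and quartiles of 404.6 and 985.6 kb. Olfr934 (38982110 to 38983042) lay deepest, with 1314 kb of domain before it and 1319 kb after it. At least 1 Mb of domain lay on both sides of 22 receptors. Only Olfr160 and Olfr874 were within 100 kb of a border. Neighbouring receptors were separated by a median of 21.3 kb, and by at most 74.2 kb, between Olfr948 and Olfr951. In steps of 500 kb from the start of the domain there were 15, 23, 18, 16 and 22 receptors, so the distal domain was filled along its length, and 1 more receptor lay in the short remainder.

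**Figure D1:**
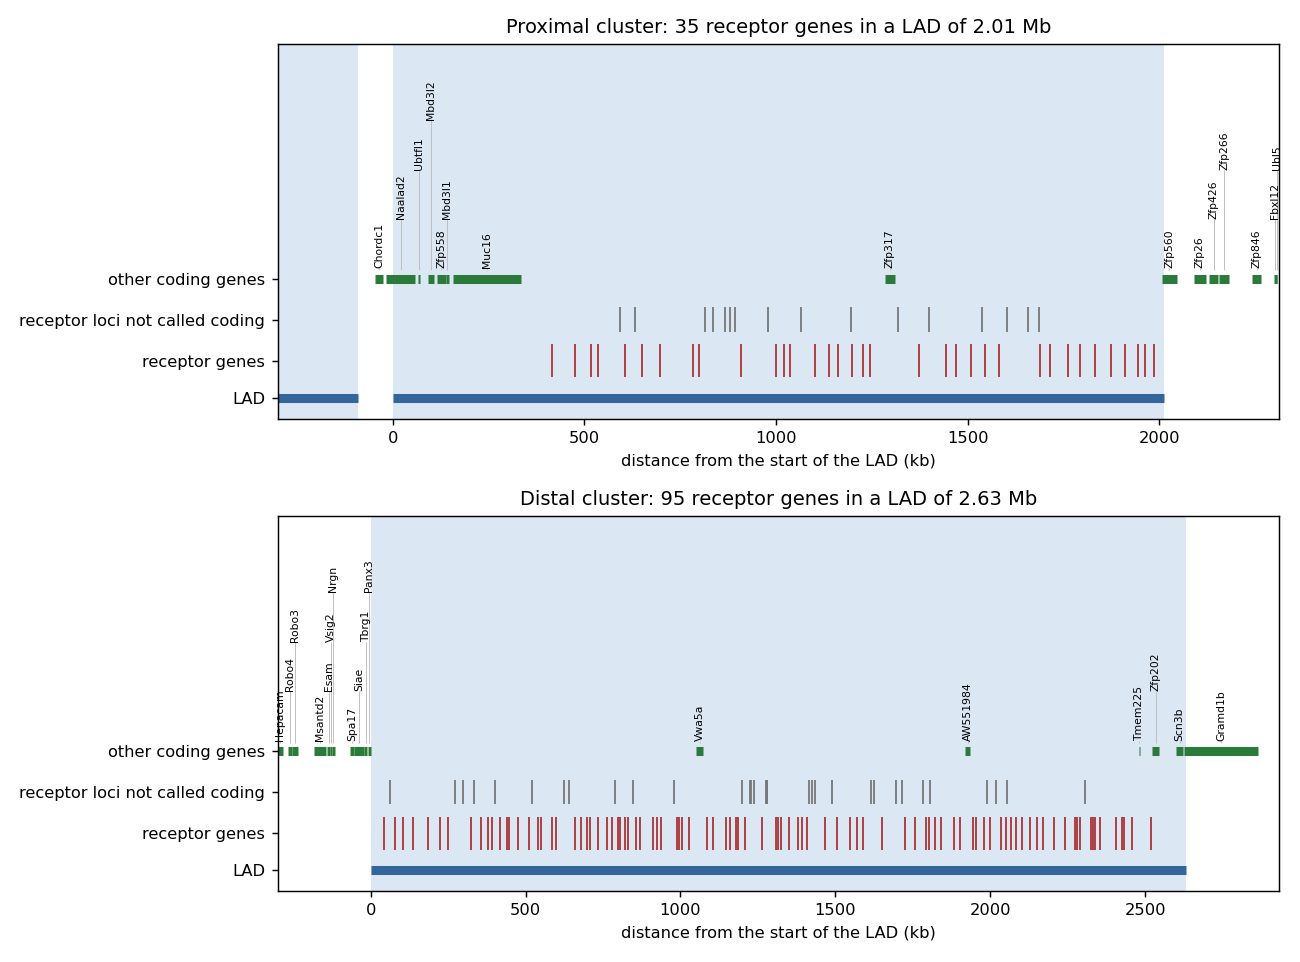
Maps of both domains, with distance from the start of the LAD in kb on the x axis. Blue bars and shading mark LADs, red ticks the receptor genes, grey ticks receptor loci that the table does not call protein-coding, and green bars other protein-coding genes up to 300 kb outside. All 35 proximal and 95 distal receptors lie in the shaded domain, and other genes sit mostly at or beyond its ends.

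Few other genes shared these domains. The proximal domain held 7 other protein-coding genes, of which 6 lay before the first receptor: Naalad2, Ubtfl1, Mbd3l2, Zfp558, Mbd3l1 and Muc16. The last of them, Muc16, ended 335.8 kb inside the domain, and Olfr24 began at 415.7 kb. Muc16 encodes a membrane mucin of epithelia, and Mbd3l1 and Mbd3l2 encode proteins related to the methyl-CpG-binding domain family. In the distal domain there were 5 others. Vwa5a, AW551984 and Tmem225 lay among the receptors, and Zfp202 and Scn3b, which encodes a sodium channel beta subunit, followed the last receptor. Of the 42 protein-coding genes of the proximal domain 83.3% were receptors, and of the 100 in the distal one 95%.

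None of the genes between receptors marked a break in the domain. Vwa5a (38718268 to 38743337) lay 1062 kb from the nearest border, AW551984 (39587396 to 39604774) 705.4 kb, and Zfp317 (19622038 to 19649743) 715.6 kb. Tmem225 (40148122 to 40150880) was nearer the end, at 152.0 kb. The list gives no signal along a domain, so a weaker contact at such a gene cannot be seen in it.

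Gene content changed over a short distance at the start of the distal domain. In the 500 kb before the distal domain there were 14 protein-coding genes and 0 receptors, and in the first 500 kb inside 15, all receptors. The border fell on Panx3, which encodes a pannexin channel of cartilage and bone, with 257 bp of the gene inside, less than the 2.5 kb step in which domain lengths come. Tbrg1 ended 11.7 kb before the border and Siae, a sialic acid esterase gene, 20.7 kb before it. From the end of Panx3 to Olfr160 no protein-coding gene intervened.

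After the proximal domain a row of zinc finger genes followed. Zfp560 (20345136 to 20385182) crossed the border with 15.9% of its length inside, and Zfp26, Zfp426 and Zfp266 lay outside, starting 76.8, 117.0 and 143.5 kb past it. The last 500 kb inside held 12 protein-coding genes, all receptors, and the next 500 kb outside 11, with 0 receptors. At the end of the distal domain, Gramd1b, a gene of sterol transport, crossed the border with 3.42% of its length inside. Only 2 genes had their midpoint in the 500 kb beyond that border, so it separated a receptor-rich from a gene-poor stretch.

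The start of the proximal domain differed in this respect. It lay inside Naalad2, a peptidase gene with 77.4% of its length in the domain, and only 90.0 kb separated it from another LAD of 2.70 Mb (15546536 to 18249027). Chordc1, which encodes a co-chaperone of heat shock protein, was the only protein-coding gene with its midpoint in that gap. No other LAD was near on the remaining sides. The next LAD began 3865 kb after the proximal domain, and for the distal domain the gaps were 972.5 kb before and 6235 kb after it.

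Both domains ranked high for the number of genes, a count that includes the receptors by which they were chosen. Among the 1437 LADs the distal domain was number 4 by protein-coding genes and the proximal one number 15. Among the 61 LADs of chromosome 9 they were the first and the second by genes, and the fifth and the tenth by length. They held 38.0 and 20.9 protein-coding genes per Mb. The 19 other LADs of chromosome 9 of at least 1 Mb held 0.256 to 15.4 per Mb, with a median of 2.23. Counting only genes other than receptors, the distal domain held 1.90 per Mb and the proximal domain 3.48. The receptors were 38.1% of the 341 protein-coding genes in LADs of chromosome 9. Their 2 domains made up 3.82% of the span of the chromosome, and all its LADs together 48.5%.

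Receptor loci without a coding call were placed in the same way. The table lists 49 more loci on chromosome 9 with a receptor symbol that it calls pseudogene, transcribed pseudogene or miscellaneous RNA. All 49 lay in LADs. The share was 90.3% for receptor loci of these biotypes on other chromosomes (243 of 269) and 50.3% for loci of these biotypes without a receptor symbol (4993 of 9936). The proximal domain held 16 of them and the distal domain 32, each between the first and last receptor gene of its cluster. They were 31.4% of the receptor loci in the proximal domain and 25.2% in the distal one. Among the transcribed pseudogenes was Olfr151 (37729977 to 37731061), known as M71 and closely related to M72, 61.6 kb from the start of the distal domain. The remaining locus, Olfr369-ps1 (3233343 to 3236366), lay far from both clusters, in a LAD near the start of the chromosome (3074076 to 3396574).

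The sequence families of the receptors were read next. A MOR family could be read for 129 of the 130 receptors from the table's synonyms (Olfr911-ps1 carries names of 2 families). There were 29 families, 15 in the proximal and 14 in the distal cluster, and 0 in both. Over all receptors, families of at least 2 genes lay in 1 cluster in 85.4% of cases (140 of 164), and those with a member on chromosome 9 in 81.8% (18 of 22), so confinement to a cluster was common. MOR171 was the largest, with 35 receptors (36.8% of the distal cluster) from Olfr160 to Olfr985. Its members reached from 42.8 to 1307 kb from a border, with a median of 907.2 kb. Only Olfr160 lay in the first 1 Mb of the distal domain. The other 34 lay between 1029 kb (Olfr919) and 2459 kb from its start, and members of other families filled the stretch between. MOR162 and MOR224 had 10 receptors each and MOR170 had 9.

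Within the distal cluster relatives lay side by side. Of 92 adjacent pairs with both families known, 66 (71.7%) were of the same family, against 10 of 34 (29.4%) in the proximal cluster. The longest run held 17 receptors of MOR171, from Olfr935 to Olfr957 over 517.2 kb. Another 10 of this family ran from Olfr965 to Olfr974, and all 9 of MOR170 ran from Olfr891 to Olfr251 over 199.0 kb. The longest run of the proximal cluster was 5 receptors of MOR146, from Olfr857 to Olfr862. The family sizes differ between the clusters, so these shares are not on an equal footing.

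**Figure D2:**
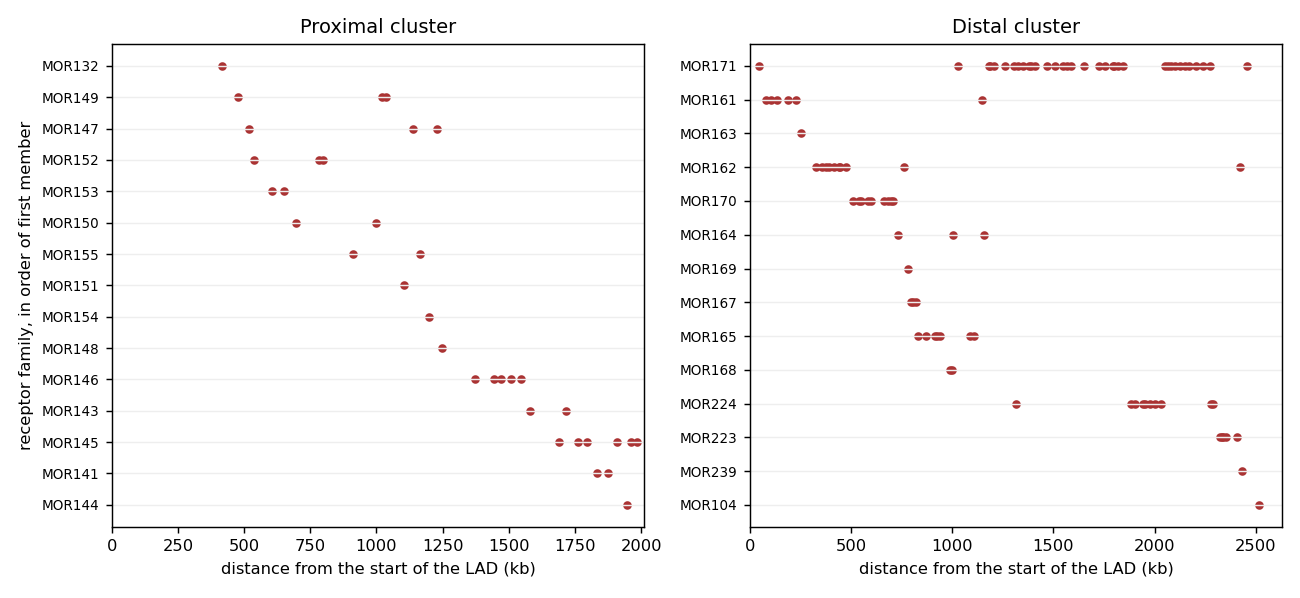
Position of each receptor gene by MOR family, with distance from the start of its LAD in kb on the x axis and families in order of their first member on the y axis. The proximal cluster has 15 families of at most 6 members, and MOR171 is the largest of the distal cluster, with Olfr160 at its start and the other 34 members beyond 1 Mb.

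Families differed in their distance from a border. In the proximal one the 6 receptors of MOR145 (Olfr866, Olfr868, Olfr869, Olfr872, Olfr873 and Olfr18) lay 26.5 to 324.0 kb from a border. The 5 of MOR146 lay 467.5 to 638.2 kb from it, around the median of the cluster, and the 2 of MOR155 (Olfr843 and Olfr851) 909.9 and 849.6 kb. In the distal one 5 of the 6 members of MOR161 (Olfr874 to Olfr145) lay 77.2 to 225.5 kb from a border, and the other, Olfr922, 1147 kb. MOR223 (Olfr978 to Olfr982) lay 226.7 to 307.2 kb from a border and the 7 members of MOR165 830.2 to 1106 kb. Because relatives adjoin, the depth of a family largely restates where its run lies.

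Orientation was known for the 109 receptors that had an upstream window in the RefSeq table. In the proximal cluster 18 lay on the plus strand and 12 on the minus strand, and 12 of 26 adjacent pairs with both strands known (46.2%) shared their strand. In the distal cluster 53 were on the plus and 26 on the minus strand, and 46 of 63 such pairs (73.0%) shared it. With receptors of unknown strand passed over, the longest stretch of a common orientation held 16 receptors, from Olfr894 to Olfr914.

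The DNA before the receptor genes was rich in A and T. The windows compared here were the 250 bases before the annotated start, taken from RefSeq (GRCm38.p6). They matched 109 of the 130 members, 30 proximal and 79 distal. In 68 of these, Olfr24 and Olfr934 among them, the annotated start is an ATG, so that such a window lies before the coding sequence and not before a mapped promoter. The windows of the first and the deepest receptor of each cluster are printed to show this composition. Olfr18, the last proximal receptor, had no window in the table, so the last receptors are not printed. They are written 5′ to 3′ on the strand of the gene, and capitals mark matches, on either strand, to TAATTA, the core bound by homeodomain factors such as Lhx2, to TATAAA, the TATA box, or to CCCNNGGG, the core of the site bound by Ebf factors.

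Olfr24, first proximal receptor, chr9:18755634-18755883, minus strand: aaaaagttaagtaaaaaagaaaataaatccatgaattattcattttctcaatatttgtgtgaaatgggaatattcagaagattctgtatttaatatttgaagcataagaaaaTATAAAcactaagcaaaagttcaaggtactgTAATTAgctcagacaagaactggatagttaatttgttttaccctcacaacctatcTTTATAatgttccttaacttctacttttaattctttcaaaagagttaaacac
Olfr845, deepest proximal receptor, chr9:19338209-19338458, plus strand: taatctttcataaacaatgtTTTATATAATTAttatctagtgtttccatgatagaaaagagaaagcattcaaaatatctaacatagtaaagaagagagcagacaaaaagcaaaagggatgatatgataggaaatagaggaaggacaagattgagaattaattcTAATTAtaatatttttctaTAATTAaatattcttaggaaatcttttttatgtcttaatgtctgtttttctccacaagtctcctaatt
Olfr160, first distal receptor, chr9:37712281-37712530, minus strand: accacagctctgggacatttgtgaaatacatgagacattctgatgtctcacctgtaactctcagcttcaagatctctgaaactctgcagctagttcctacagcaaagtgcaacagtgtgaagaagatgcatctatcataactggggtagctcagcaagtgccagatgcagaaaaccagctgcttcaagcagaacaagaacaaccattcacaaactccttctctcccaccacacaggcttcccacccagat
Olfr934, deepest distal receptor, chr9:38983043-38983292, minus strand: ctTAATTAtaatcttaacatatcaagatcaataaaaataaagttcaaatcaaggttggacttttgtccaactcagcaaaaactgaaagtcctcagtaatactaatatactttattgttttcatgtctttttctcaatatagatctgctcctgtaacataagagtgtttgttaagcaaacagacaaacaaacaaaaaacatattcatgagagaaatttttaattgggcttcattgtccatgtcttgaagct

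The window of Olfr24 was 26% G and C, that of Olfr845 25.2%, that of Olfr934 29.2% and that of Olfr160 46.4%. None of these 4 contained a CpG, and the window of the last distal receptor, Olfr986, held 1 and no motif match. Olfr160 stood near the upper end of all members, whose windows ran from 19.6% (Olfr1537) to 48.4% (Olfr976). The median was 31.2% in the proximal and 34.4% in the distal cluster. It was 34% before the 835 matched receptors of other chromosomes, 46.8% before the 3439 other protein-coding genes in LADs and 58% before the 13103 protein-coding genes outside LADs that are no receptors. Among the 8 matched other genes of the same 2 domains the lowest value was 42.4%, and the median was 45.2%.

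**Figure D3:**
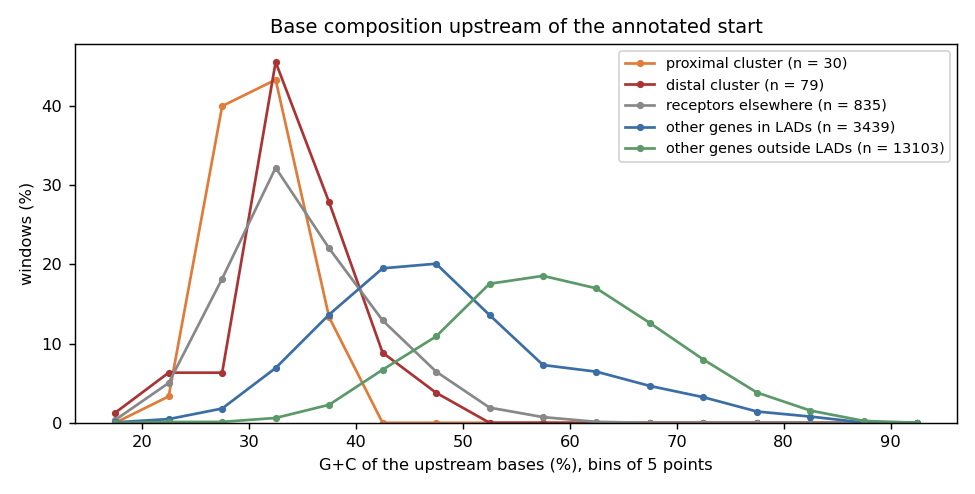
Share of upstream windows (y axis, %) by their content of G and C (x axis, %, bins of 5 points) for 5 groups of protein-coding genes. The proximal and distal receptors peak between 30% and 35%, left of the other genes in LADs (median 46.8%) and of those outside (median 58%).

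How a gene model starts is tied to this composition. Windows with an ATG at the annotated start made up 62.4% of those of the members and 2.98% of those of genes outside LADs. Restricted to windows whose annotated start is no ATG, the median was 34.4% for the members (41 windows), 48.4% for other genes in LADs (2846 windows) and 58.4% for genes outside (12712 windows). Among windows with an ATG there, which most members have, the medians lay closer, at 32.4% for the members (68 windows) and 38.8% for other genes in LADs (593 windows). CpG was lacking in 49.5% of the members' windows, in 43.7% of those of receptors on other chromosomes and in 4 of the 8 windows of other genes in the same 2 domains. It was lacking in 15.1% of the windows of other genes in LADs and in 7.33% of all 17486 windows of protein-coding genes. Among windows with an ATG at the annotated start it was lacking in 52.9% for the members and 26.1% for other genes in LADs.

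TAATTA occurred in 27 of the 109 windows (24.8%), and in 4.45% of all windows of this length before protein-coding genes. The share was 46.7% in the proximal cluster (14 of 30) and 16.5% in the distal one (13 of 79). TATAAA on either strand occurred in 42.2% of the members' windows and in 12.4% of all windows. Its share was 56.7% in the proximal cluster (17 of 30) and 36.7% in the distal one (29 of 79). Other genes in LADs had 5.99% for TAATTA and 19.2% for TATAAA over all their windows. Against these genes the contrasts were smaller among windows with an ATG at the annotated start. There TAATTA occurred in 25% of the members' windows and 9.61% of those of other genes in LADs, and TATAAA in 47.1% and 29.2%. CCCNNGGG occurred in 2 members, Olfr147 and Olfr983 (1.83%), against 13.3% of all. Both TAATTA and TATAAA were present in 16 windows, and in 1 window matches to them overlapped. Receptors of other chromosomes had 17.2% for TAATTA, 38.9% for TATAAA and 2.87% for CCCNNGGG. For TAATTA and TATAAA the proximal cluster lay above these values and the distal cluster slightly below them. The windows of the proximal cluster were also the lower in G and C, and the part of base composition in these shares was not tested. A match shows only that the letters are present.

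Genes that receptors depend on lay mostly outside LADs, as protein-coding genes do in general. Of 26 genes of olfactory signalling and receptor choice, all of which matched the table, 3 (11.5%) lay in a LAD. The share of all protein-coding genes without the receptors was 21.1%, and with 26 genes the difference was not tested. The signalling genes Gnal, Adcy3, Cnga2, Cnga4, Cngb1 and Ano2 were all outside, as were Omp, the marker of mature olfactory neurons, and Rtp1, Rtp2 and Reep1, whose proteins help receptors to reach the membrane. Cnga4 was the nearest of those outside, 19.6 kb from a border. Those inside were Slc8a1, a sodium-calcium exchanger gene (506.9 kb from a border), Ebf1 (155.1 kb) and Ebf3 (1516 kb), which encode transcription factors. Lhx2 and Ldb1, whose products assemble at receptor enhancers, lay outside at 922.8 and 1959 kb. Lbr, the lamin B receptor gene, whose loss from olfactory neurons is a known feature of their nuclei, was 3666 kb from a border. The others outside were Gnb1, Gng13, Ric8b, Slc24a4, Ebf2, Emx2, Atf5, Kdm1a, Cbx5 and Stoml3.

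Other chromosomes with many receptors gave the comparison for these clusters. Of the receptors on all other chromosomes 86.8% lay in LADs (851 of 980, counting 1 outside the span of its chromosome). The share was 99.3% on chromosome 2 (285 of 287), 97.5% on chromosome 7 (233 of 239) and 37.3% on chromosome 11 (31 of 83). Of the 17 chromosomes with receptor genes, chromosome 9 was the only one with none outside. With 1 merged list and whole clusters sharing a domain, no test of these differences was made.

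**Figure D4:**
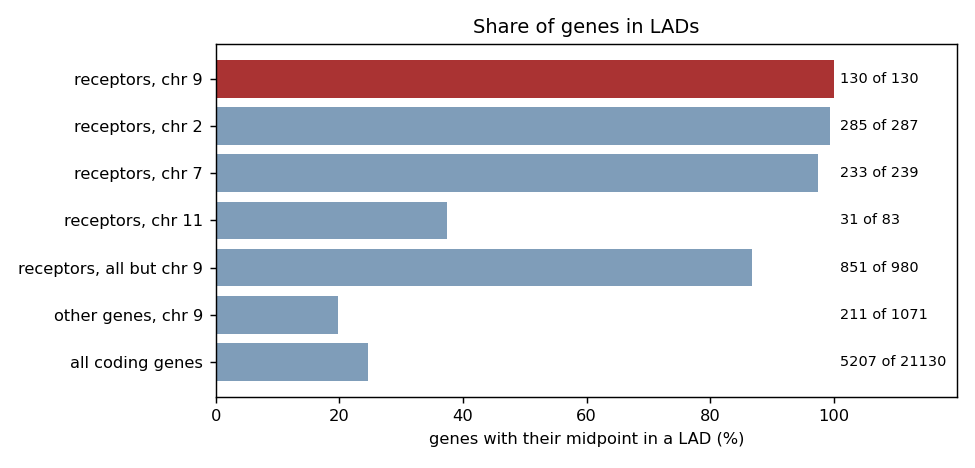
Bars give the share of genes with their midpoint in a LAD (x axis, %), with the counts at the right, for receptor genes of chromosome 9, 3 other chromosomes and all other chromosomes, and for other genes. The bar of chromosome 9 reaches 100%, next to those of chromosomes 2 and 7, while chromosome 11 lies at 37.3%.

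Cluster by cluster, containment in 1 domain was common but not general. By the same gap rule there were 55 receptor clusters on all chromosomes, of which 23 had at least 10 genes. Of these 23, 11 lay wholly in 1 LAD, and both clusters of chromosome 9 were among them. On chromosome 2 it was 1 of 3, on chromosome 7 4 of 5 and on chromosome 11 0 of 3. The distal cluster was the third largest, after those of 222 genes on chromosome 2 and 126 on chromosome 7. These larger clusters ran past the border of their domain, with 99.3% and 98.2% of their bases in LADs. The cluster of 21 genes on chromosome 11 had 0% of its bases in a LAD.

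**Figure D5:**
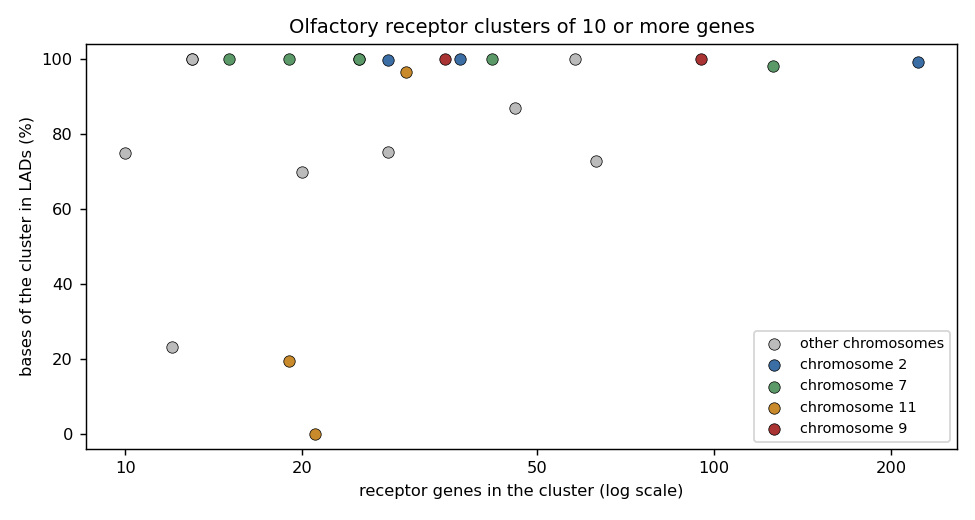
Receptor clusters of at least 10 genes, with the number of genes on a log x axis and the share of their bases in LADs (%) on the y axis. Both clusters of chromosome 9, with 35 and 95 genes, lie at 100%, and points of equal value cover each other.

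How deep a gene can lie is bounded by the length of its domain. Receptors of chromosome 9 had a median distance of 651.8 kb to the nearest border. It was 1050 kb for those in LADs on chromosome 2, 713.6 kb on chromosome 7 and 181.3 kb on chromosome 11. Other protein-coding genes in LADs of 2 to 3 Mb, the length class of both domains here, had a median of 612.1 kb (725 genes in 91 domains), and the other genes in LADs of chromosome 9 one of 165.7 kb.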

How the data were processed

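The authors deposited 1 list of LADs in BED format. The deposited values are start and end positions in base pairs, and the score column that the authors filled holds 0 in all 1437 lines. Bowtie2 and mm10 are named in the submitters' processing notes. The domain caller, its threshold and the use of IgG or spike-in are not given in the sources used here. Only its name, which says merged, ties the list to both Lamin B1 libraries. Lengths of domains were multiples of 2.5 kb to within 125 bp (100% of domains), which limits the borders. Depth and interval per domain are unknown.

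Genes were placed with Python 3.11.15 and pandas 2.3.3 by their midpoint, counted from 1. Spans ran from the first to the last LAD of a chromosome. For a gene with several upstream windows the first was used, and windows holding other letters than A, C, G and T were left out. The placement was tested on simulated data, where 1000 of 1000 points were recovered. Members and lists were chosen with earlier results of these data known. The genes named with their positions were the first, last, nearest and deepest receptor of each cluster and the genes in and beside both domains. Olfr151, Olfr369-ps1, Olfr1537, Olfr976, Olfr147, Olfr983 and the families and runs were chosen after their values were seen. Protein identities were not analysed here.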

Additional observations from a re-analysis of the deposited data

How the results depend on the processing

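The share of receptors in LADs was recomputed for all members and for each cluster. Of 35 such values, 32 were 100%. Among them were those by either end of the gene, by whole genes, by any overlap and with LADs of at least 100 or 500 kb. So were those with LADs joined across 250 kb, with borders moved by 10 kb, with all 179 receptor loci and, added after seeing the data, without Olfr911-ps1. Every member lay whole in a domain of 2.01 or 2.63 Mb, at least 15.4 kb from a border. Given this, all of these settings but the one with all receptor loci could only return 100%. Shortening each LAD by 50 kb gave the other 3, at 98.5% for all members, 97.1% for the proximal and 98.9% for the distal cluster, since Olfr18 and Olfr160 then lay outside. The median distance to a border in the proximal cluster rose from 542.7 kb to 784.6 kb with LADs joined across 250 kb and to 834.6 kb with LADs lengthened by 50 kb. Both alternatives close the gap around Chordc1 by construction. The closed gap also entered the median of all members, which was 704.2 kb with LADs joined and 754.2 kb with LADs lengthened by 50 kb. The remaining moves of borders gave 601.8 to 661.8 kb for all members. In the distal cluster moves by 10 or 50 kb gave 637.4 to 737.4 kb. These shifts follow by construction and say nothing about stability. No paired analysis was possible because the list is merged and carries no values per replicate, so neither replicate could be left out in turn. The read depth is unknown.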

Other observations

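Besides receptor loci, both domains held few non-coding genes. The proximal domain contained 1 long non-coding RNA (Gm39297) and 1 small nucleolar RNA (Gm23048), and the distal domain 1 of each kind (Gm35123 and Gm24278) with 1 small nuclear RNA (Gm24764). Of the 21 loci called pseudogene in the proximal domain 14 had a receptor symbol, and in the distal domain it was 28 of 40. Counting all biotypes, the domains held 67 and 148 annotated genes.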
